A study of Mus musculus with 6 samples.

Results

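The Snail, Twist and Zeb genes encode the transcription factors best known for driving epithelial cells toward a mesenchymal state. They were followed here in keratinocytes at the leading edge of mouse skin wounds. Every probe set annotated to the single symbol Snai1, Snai2, Snai3, Twist1, Twist2, Zeb1 or Zeb2 was taken, which gave 7 probe sets, 1 per gene, of 35556 on the array (7 of 19938 named genes). Members were taken by symbol, with earlier results of these data known.

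Whole-transcript arrays of 6 samples were available, 3 labelled diabetic and 3 labelled normal. Diabetic mice received a high fat, high fructose diet from 8 weeks of age for 16 weeks, and normal mice a control diet of the same length. Skin wounds of both groups were harvested on day 3. Leading keratinocytes of the advancing epithelium were captured by laser from fixed tissue, and the cells from all sections of a sample were pooled. Strain, sex and the number of mice behind each sample go unstated in the sources used here. The labels call the samples biological replicates, without saying whether each comes from separate mice. P-values therefore measure the spread between these samples, which may differ from that between mice. In captured tissue, fewer cells that express a gene and less RNA per cell cannot be told apart.

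Snail-family proteins carry zinc fingers that bind E-box DNA and an amino-terminal SNAG motif that recruits corepressors. Zeb proteins bind similar sites through paired zinc-finger clusters, and Twist proteins bind E-boxes as basic helix-loop-helix dimers. Their best known shared target is the E-cadherin gene Cdh1. In wound keratinocytes Snai2 is the member most often tied to the partial loosening of cell contacts during re-epithelialization, whereas Twist and Zeb genes are typical of fibroblasts and other mesenchymal cells. Much of the control of Snail proteins lies in phosphorylation and degradation, which RNA arrays do not measure.

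The sequence that Snail and Zeb zinc fingers prefer is the E-box CACCTG, read as CAGGTG on the other strand. It is shown first in the promoter of Snai1, because Snai1 has the largest difference among the members. The sequence below covers the bases upstream of the start site at chr2:167537945-167538194 (GRCm38.p6, plus strand, RefSeq), with the E-box in capitals.
Snai1: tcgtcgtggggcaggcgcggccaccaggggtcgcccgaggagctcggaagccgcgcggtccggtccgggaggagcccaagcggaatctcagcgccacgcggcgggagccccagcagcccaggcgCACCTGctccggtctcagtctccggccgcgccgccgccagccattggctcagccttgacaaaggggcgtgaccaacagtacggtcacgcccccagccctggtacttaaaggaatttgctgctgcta
These 250 bases held 1 match, at position -126 from the start site, in a window of 70% G and C. Promoter windows were matched by symbol for 4 of the 7 members (Snai1, Twist1, Twist2 and Zeb2, 7 windows in all), and the Snai1 window was the only one with a match.

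The same 6 letters were looked for in the promoters of 26 epithelial genes that these factors are known to repress or that oppose them. Windows of 300 bases were matched for 15 of these genes, and 13 of 20 windows (65%) held the E-box on either strand, against 20.2% of all 32851 windows. Those 13 windows belonged to 11 of the 15 genes, among them tight junction and polarity genes. Over all windows, 6098 of 27025 genes held a match. Windows of Ocln overlap each other, as do those of Crb3, so some sites were counted more than once. The list was picked for its known ties to these factors, so the contrast with all windows is not an independent result. A match describes the letters and is not evidence of binding. Base composition, which changes how often the letters occur, was not tested. For 4 of these genes a single upstream site each is shown, with the E-box in capitals. All 4 held further matches, which are not shown. The Ocln site is upstream for the window at chr13:100552449-100552748, and lies past the start site of the window at chr13:100552669-100552968. The sites are at chr5:134946931-134946960 for Cldn4, chr11:69965312-69965341 for Cldn7, chr13:100552549-100552578 for Ocln and chr17:57062071-57062100 for Crb3 (GRCm38.p6). Cldn7 and Crb3 are on the plus strand, the others on the minus strand.
Cldn4: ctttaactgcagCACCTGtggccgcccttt
Cldn7: tttcttcctcttCACCTGgacgaggagggg
Ocln: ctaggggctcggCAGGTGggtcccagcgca
Crb3: cccctgtgcttaCACCTGctcatttccgcc
The letters around the E-box differ between all 4 genes.

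Signals are log2 probe set values, and a background limit was set on each array at the 95th percentile of 1190 genes for olfactory and vomeronasal receptors, a class not known for broad expression in skin. The limit lay between 1.98 and 2.12, and a value at or under it is no more than a bound on the level. The arrays with the lowest limits were diabetic replicate 1 (1.98) and diabetic replicate 2 (2.01). Keratinocyte markers were themselves dim. Among 15 measured, 4 lay above the limit on every array and 5 on none, and E-cadherin, the protein used to find the cells, had a Cdh1 signal under the limit on every array. Krt5 and Krt14, the keratin genes of basal epidermis, each exceeded the limit in 2 diabetic and 0 normal samples. For Krt14 this count depends partly on unequal limits. Diabetic replicate 2 at 2.05 passed its limit of 2.01, while normal replicate 2 at 2.07 fell under its limit of 2.11. The difference was 0.19 (SE 0.15) for Krt5 and 0.23 (SE 0.15) for Krt14. With 1 array left out, Krt5 ranged from 0.08 (without diabetic replicate 2) to 0.35 (without diabetic replicate 1), and Krt14 from 0.12 (without normal replicate 1) to 0.38 (without normal replicate 2).

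Of the 7 members, Snai1 and Twist1 exceeded the limit on all 6 arrays, Snai3, Twist2 and Zeb1 on some of them, and Snai2 and Zeb2 on none. Of all genes, 17.3% were above it on every array and 51.5% on none. Diabetic replicates 1 to 3 had 2, 4 and 5 members above the limit, and normal replicates 1 to 3 had 4, 3 and 2. These counts varied as much within a group as between the groups. On the same arrays, 35.2%, 36.5% and 29.1% of all genes exceeded the limit in diabetic samples. In normal samples the shares were 27.4%, 28.4% and 28.4%.

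**Figure D1:**
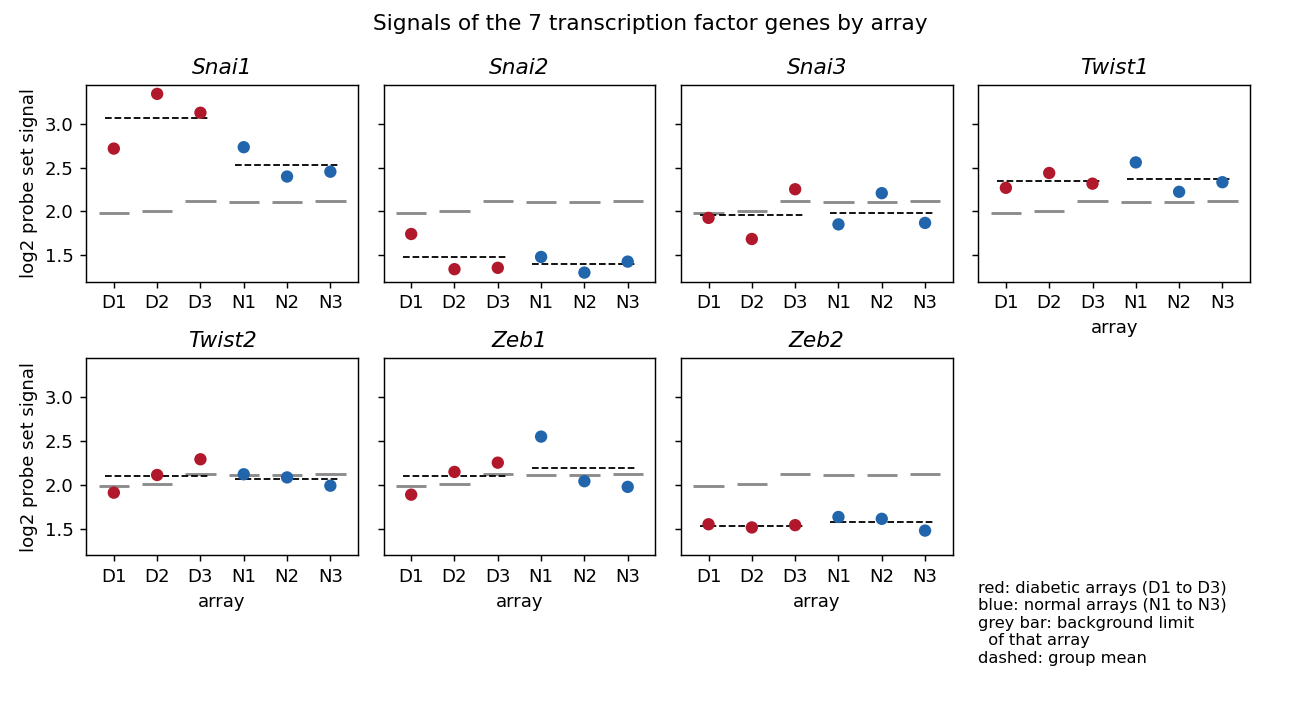
Log2 probe set signal (vertical axis) of each of the 7 genes on the 3 diabetic (D1 to D3, red) and 3 normal (N1 to N3, blue) arrays, with the group mean as a dashed line and the background limit of each array as a grey bar. Snai1 and Twist1 lie above the bars on all 6 arrays and Snai2 and Zeb2 under them on all 6, and no gene separates the groups completely.

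Snai1, which encodes the Snail repressor of E-cadherin, gave the largest difference among the members. Its signal was 2.72, 3.34 and 3.13 in the diabetic samples, against 2.73, 2.40 and 2.45 in the normal samples. Diabetic replicates 2 and 3 stood above every normal array, while diabetic replicate 1 lay level with normal replicate 1, so the groups overlapped. Group means were 3.06 ± 0.32 (SD, n = 3) in diabetic and 2.53 ± 0.18 in normal samples. The difference was 0.53 (SE 0.17), a ratio of signals of 1.45 with a 95% interval from 1.11 to 1.89.

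The Snai1 difference did not pass the threshold over all genes (limma, adjusted p = 0.780, unadjusted p = 0.0102). An exact permutation test over the 6 arrays gave a two-sided p of 0.2, where 0.1 is the smallest that 3 against 3 allows. By unadjusted p Snai1 stood at place 253 of 19938 genes, so 1.27% of genes had a p as small or smaller. A difference as far from 0 was met in 92 genes (0.461%). Among the 3451 genes above the limit on all arrays, 35 had a p as small or smaller. Without diabetic replicate 2 the difference was 0.39 (unadjusted p = 0.0524, limma), and without diabetic replicate 1 it was 0.71 (unadjusted p = 0.00150, limma). With an ordinary linear model, which does not share variance between genes, the unadjusted p was 0.0643.

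Snai2, known as Slug and the family member most often linked to wound-edge keratinocytes, was at or under background throughout. Its signal was 1.74, 1.34 and 1.36 in the diabetic samples, against 1.48, 1.30 and 1.43 in the normal samples. Diabetic replicate 1 was the highest array, and the other diabetic arrays lay within the normal range. Its signal minus the limit of the same array was at most -0.24, so these signals give no more than an upper bound on Slug transcript in either group.

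Snai3, a less studied Snail relative, varied between arrays without regard to group. Its signal was 1.93, 1.69 and 2.25 in the diabetic samples, against 1.85, 2.21 and 1.87 in the normal samples. It exceeded the limit on 1 array of each group, diabetic replicate 3 and normal replicate 2. Diabetic arrays held both the highest and the lowest value, and the difference was -0.02 (SE 0.16).

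Twist1, a helix-loop-helix factor of neural crest and mesoderm that is also active in dermal fibroblasts, exceeded the limit on every array. It did so by 0.12 to 0.45. Its signal was 2.27, 2.44 and 2.32 in the diabetic samples, against 2.56, 2.22 and 2.33 in the normal samples. Normal arrays held both the highest and the lowest value, and all 3 diabetic values lay between them. Means were 2.34 ± 0.09 (SD, n = 3) and 2.37 ± 0.17, and the difference of -0.03 had a 95% interval from -0.32 to 0.26.

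Twist2, also called Dermo1 for its expression in dermis, lay close to the limit. Its signal was 1.91, 2.11 and 2.29 in the diabetic samples, against 2.12, 2.08 and 1.99 in the normal samples. Diabetic arrays held both extremes, and the 3 normal values fell between them. The difference was 0.04 (SE 0.13).

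Zeb1, a zinc-finger homeodomain repressor of epithelial genes, was highest on a normal array. Its signal was 1.89, 2.15 and 2.25 in the diabetic samples, against 2.55, 2.04 and 1.98 in the normal samples. Only normal replicate 1 stood well clear of the limit, and the remaining values of the groups interleaved. Means were 2.10 ± 0.19 (SD, n = 3) and 2.19 ± 0.31. The difference was -0.09 (SE 0.17) over all arrays and 0.09 without normal replicate 1.

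Zeb2, the other Zeb gene and also a factor of macrophages and melanocytes, was under the limit on all 6 arrays. Its signal was 1.55, 1.51 and 1.54 in the diabetic samples, against 1.63, 1.61 and 1.48 in the normal samples. The 3 diabetic values fell within the normal range, which itself spanned little. The difference was -0.04 (SE 0.10).

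Across the family, 3 members were higher and 4 lower in diabetic samples, where 48.7% of all genes were higher, with a median difference of -0.02, against a median of less than 0.01 in size over all genes. With limma and Benjamini-Hochberg adjustment 0 of the 7 passed, as did 0 of 19938 genes (0%). The smallest adjusted p of any gene was 0.405. At an unadjusted p under 0.05 there was 1 member, Snai1, where 5.56% of all genes passed that rule. Over all genes, 526 (2.64%) passed it with a higher and 583 (2.92%) with a lower signal in diabetic samples. An ordinary linear model per gene also called 0 by adjusted p, and 493 higher and 544 lower genes by the unadjusted rule. With quantile normalization these counts became 611 higher and 450 lower. Without the dimmer 50% of genes they were 368 and 195. Among genes above the limit on at least 3 arrays they were 256 and 107, so 70.5% of the latter were higher. A gene could pass this last filter on the 3 diabetic arrays alone. More genes exceeded the limit there, 29.1% to 36.5% against 27.4% to 28.4% on normal arrays. That share is therefore no independent result. The 2 groups did not overlap for 0 of the 7 members, where 10.7% of all genes met that condition. For the 6 members other than Snai1 the 95% interval lay within 1.5-fold in either direction. That is a statement on array signal and does not bound a difference in RNA where the signal is at background.

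**Figure D2:**
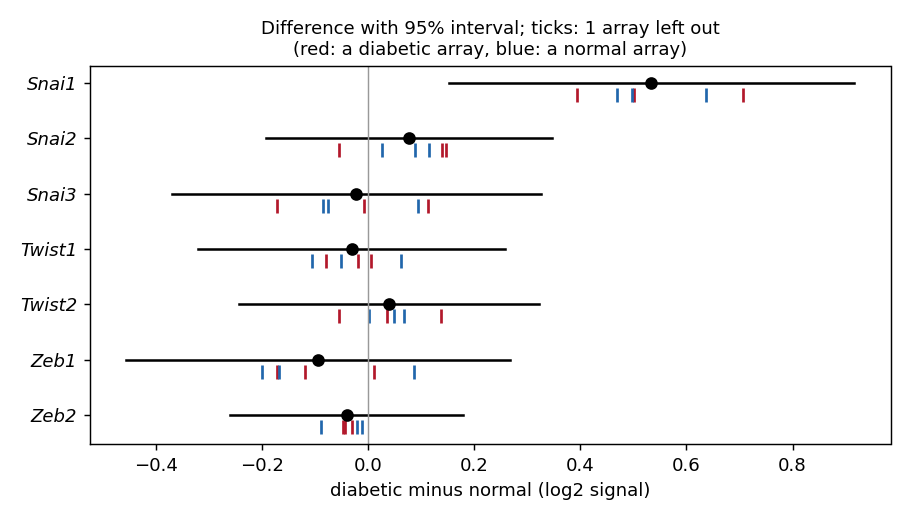
Difference in log2 signal, diabetic minus normal (horizontal axis), for each gene, with its 95% interval from limma as a line and the difference with 1 array left out as ticks (red for a diabetic array, blue for a normal array). The Snai1 interval runs from 0.15 to 0.92 and its ticks stay between 0.39 and 0.71, while the intervals of the other 6 genes include 0.

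Members did not share one array profile. Normal replicate 1 held the highest value for 3 of the 7 (Twist1, Zeb1 and Zeb2), diabetic replicate 3 for Snai3 and Twist2, diabetic replicate 2 for Snai1 and diabetic replicate 1 for Snai2. Normal replicate 2 held the lowest value for 3 members (Snai1, Snai2 and Twist1). Vim, which encodes the mesenchymal filament protein vimentin, was also highest on normal replicate 1, at 2.23. Its other values were 1.70, 1.96 and 1.87 in the diabetic samples, against 1.72 and 1.65 for normal replicates 2 and 3, all under the limit. Zeb1, Twist1 and Vim were thus all highest on the same normal array. Of 10 fibroblast markers, 4 exceeded the limit on normal replicate 1, against 4 to 6 on the other arrays, under limits that differ between arrays. The part of fibroblast RNA in the Zeb1, Twist1 and Vim values was not tested.

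**Figure D3:**
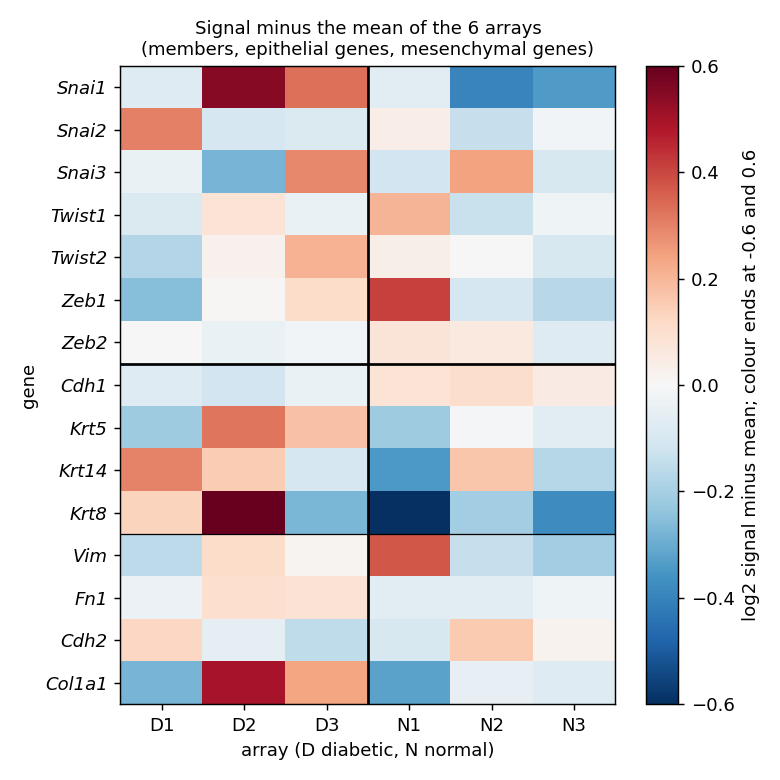
Log2 signal of each gene on each array minus that gene's mean over the 6 arrays (colour, ending at -0.6 and 0.6), for the 7 members, 4 epithelial genes and 4 mesenchymal genes (rows) on diabetic (D1 to D3) and normal (N1 to N3) arrays (columns). Snai1, Krt5 and Col1a1 are high on D2 and D3, while Zeb1, Twist1 and Vim are highest on N1.

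The genes with the most similar profile were sought by Pearson's r over the 6 arrays. Candidates were 5725 genes above the limit on at least 3 arrays, leaving out members, predicted genes, chemosensory receptors and small RNAs. For Snai1 they were F8a (0.994), Rbm3os (0.993) and Kcnn1 (0.981), and 56 genes had r over 0.9. For Twist1 they were Gpr35, Paqr9 and Foxi1 (0.994, 0.993 and 0.985). For Zeb1 they were Tspan9, Gast and Rab5c (0.989, 0.986 and 0.972). For Twist2 they were Noc4l, Iqcf5 and Rapgef1 (0.998, 0.990 and 0.988), and for Snai3 Dpysl4, Znhit1 and Trpm6 (0.978, 0.972 and 0.972). With so few arrays and so many genes such values describe these arrays and carry no test. None of the 15 is a gene of epithelial or mesenchymal identity on the lists used here, but the filter had removed Vim, Cdh1, Fn1 and Cdh2 as too dim. Taken directly, Vim had an r of 0.94 with Zeb1 and 0.90 with Twist1, and Fn1 of 0.89 with Snai1. The mesenchymal gene Cdh2 went the other way, at -0.73 with Zeb1, -0.66 with Twist1 and -0.67 with Snai1.

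Genes that the factors repress came first among the related lists. Cdh1 had signals of 1.88, 1.84 and 1.92 in the diabetic samples, against 2.04, 2.06 and 2.01 in the normal samples. The groups did not overlap, with diabetic arrays lower, a condition met by 5.66% of all genes in that direction. The difference was -0.16 (SE 0.11, limma adjusted p = 0.911). All 6 values were under the limit, so the order of the arrays concerns signals that may be background.

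Of the 26 epithelial targets, which hold junction, polarity, splicing and simple keratin genes, 16 were higher and 10 lower in diabetic samples, and 0 passed the adjusted threshold. Their median difference was 0.03, and 6 exceeded the limit on all arrays. A single gene of the list, Krt8, had an unadjusted p under 0.05. It encodes a keratin of simple epithelia and was at 4.27, 6.06 and 3.86 in the diabetic samples, against 2.95, 3.93 and 3.76 in the normal samples. Diabetic replicate 2 stood far above the rest, and the difference was 1.19 over all arrays and 0.52 without it. Diabetic replicate 2 was also the array with the highest Snai1. Whether one sample property underlies both was not tested. The desmosomal gene Dsp differed by -0.30 (SE 0.14), plakoglobin gene Jup by 0.25 (SE 0.13) and the polarity gene Llgl2 by 0.26 (SE 0.15).

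The genes whose promoter sites are shown were read too, picked for their sequence. The polarity gene Crb3, above the limit on all arrays, was at 2.84, 3.00 and 3.24 in the diabetic samples, against 2.58, 3.17 and 2.62 in the normal samples. The groups overlapped, and the difference was 0.23 (SE 0.18). The claudin genes Cldn4 and Cldn7 differed by -0.06 (SE 0.13) and less than 0.01 in size, with Cldn4 above the limit on 2 arrays of each group and Cldn7 on 3 diabetic and 2 normal arrays. The occludin gene Ocln was under the limit on all arrays and differed by 0.01 (SE 0.10).

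Mesenchymal markers, the genes usually read as the outcome of the transition, showed 14 higher and 7 lower of 21 measured, with a median difference of 0.10 and 0 passing either threshold. Col1a1, a fibrillar collagen of fibroblasts, was at 3.37, 4.14 and 3.88 in the diabetic samples, against 3.32, 3.60 and 3.57 in the normal samples. As with Snai1 and Krt5, diabetic replicates 2 and 3 were the highest arrays and diabetic replicate 1 lay among the normal ones. The Col1a1 difference was 0.30 (SE 0.20), with a range from 0.13 (diabetic replicate 2 left out) to 0.52 (diabetic replicate 1 left out). Fibronectin gene Fn1 differed by 0.10 (SE 0.11), the N-cadherin gene Cdh2 by -0.06 (SE 0.12) and Vim by -0.02 (SE 0.16), and Fn1 and Cdh2 were under the limit on all arrays. The calcium-binding protein gene S100a4 differed by 0.21, the pericyte receptor gene Pdgfrb by 0.19 and Cdh11, a cadherin of mesenchymal cells, by -0.20. S100a4 and Cdh11 were also under the limit on all arrays.

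Among 28 measured ligands, receptors and transducers that induce the factors, 14 were higher and 14 lower, and their median difference was under 0.01 in size. Tnf, an inflammatory cytokine known to stabilize Snail protein, was at 1.77, 1.98 and 1.71 in the diabetic samples, against 2.24, 2.40 and 2.22 in the normal samples. The groups did not overlap, with diabetic arrays lower, as for 5.66% of all genes in that direction. Tnf lay above the limit in all 3 normal and in 0 diabetic samples. The difference was -0.46 (SE 0.12, limma unadjusted p = 0.00278, adjusted p = 0.780), and it lay between -0.54 and -0.41 with any 1 array left out. Smad2, which relays TGF-beta signals, differed by -0.23 (SE 0.11) with all arrays under the limit, the receptor gene Notch1 by 0.18 (SE 0.14) and the ligand gene Tgfb3, likewise under the limit throughout, by -0.14 (SE 0.12). No gene of this list passed the adjusted threshold.

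Of 21 measured partners and corepressors, 10 were higher and 11 lower, and the median difference was -0.03. Ctbp1, a corepressor that Zeb and Snail proteins recruit, was at 2.52, 2.60 and 2.35 in the diabetic samples, against 2.24, 2.17 and 2.22 in the normal samples. All diabetic arrays stood above all normal arrays, as for 5.02% of all genes in that direction, and all 6 values exceeded the limit. The difference was 0.28 (SE 0.12, limma unadjusted p = 0.0414, adjusted p = 0.887). Its unadjusted p rose above 0.05 when any array except diabetic replicate 3 was left out, to at most 0.137. Tcf3, which encodes the E proteins that pair with Twist, differed by 0.33 (SE 0.16), the LIM-domain Snail cofactor gene Limd1 by -0.24 (SE 0.13) and the histone deacetylase gene Hdac2, under the limit on all arrays, by -0.16 (SE 0.12).

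Kinases, phosphatases, ubiquitin ligases and transport factors that set the stability and location of the proteins showed 10 higher and 7 lower of 17 measured, with a median of 0.05. Ctdsp1, a small phosphatase that acts on Snail, was at 2.57, 2.56 and 2.32 in the diabetic samples, against 2.14, 2.04 and 2.36 in the normal samples. Normal replicate 3 lay above diabetic replicate 3, so the groups overlapped. The difference was 0.31 (SE 0.14, limma unadjusted p = 0.0457, adjusted p = 0.887). Its unadjusted p was above 0.05 without diabetic replicate 1 or 2 or normal replicate 1 or 2 (at most 0.153), and also under quantile normalization (0.0541), a replicate block (0.0666) and the ordinary linear model (0.0738). Fbxl14, a ubiquitin ligase subunit that targets Snail, differed by 0.24 (SE 0.12), Gsk3b, the kinase that marks Snail for degradation, by -0.15 (SE 0.11) and the protein kinase D gene Prkd1 by 0.17 (SE 0.13). Fbxl14 and Gsk3b were under the limit on all arrays.

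**Figure D4:**
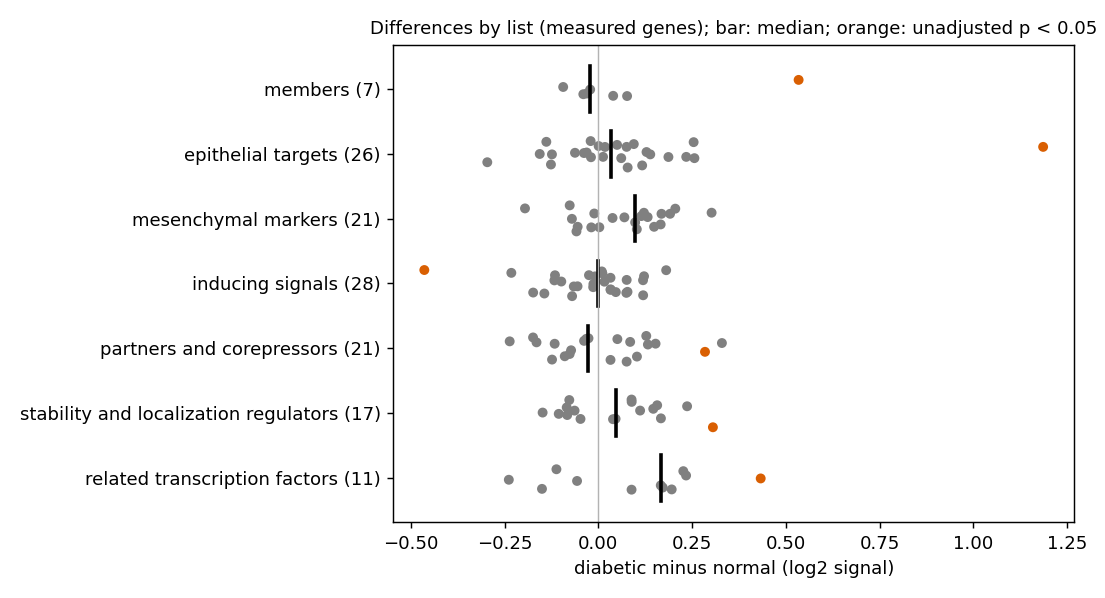
Difference in log2 signal, diabetic minus normal (horizontal axis), of each measured gene (points) in the 7 members and 6 related lists (rows, with the number measured), with the list median as a bar and genes with an unadjusted limma p under 0.05 in orange. Snai1 at 0.53, Krt8 at 1.19 and Tnf at -0.46 stand apart from their lists, and no list median exceeds 0.17 in size.

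The miR-200 family holds Zeb1 and Zeb2 transcripts in check in epithelia, and Zeb proteins repress the miR-200 genes in turn. Its mature 3p sequences (RefSeq) fall into 2 seed groups, shown with the seed in capitals because the seed decides which transcripts are bound. The probe sets were looked at with their values in view.
miR-200b-3p: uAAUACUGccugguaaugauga
miR-200c-3p: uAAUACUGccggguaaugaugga
miR-429-3p: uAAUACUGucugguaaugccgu
miR-200a-3p: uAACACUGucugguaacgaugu
miR-141-3p: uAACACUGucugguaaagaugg
The seeds AAUACUG and AACACUG differ by a single base. Probe sets of these genes report the precursor region and not the mature arm.

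Mir200c was above the limit on all 6 arrays, at 4.55, 4.88 and 4.92 in the diabetic samples, against 4.98, 4.80 and 4.996 in the normal samples. The groups overlapped, and the difference was -0.14 (SE 0.17, limma unadjusted p = 0.430). Mir200a, Mir200b and Mir141 were under the limit on every array and differed by 0.13 (SE 0.12), -0.26 (SE 0.13) and less than 0.01 in size. Mir429 was not analysed here.

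Markers of other cells in wounded skin that express these factors were read beside the members. Of 10 fibroblast genes 6 were higher and 4 lower in diabetic samples, with 3 above the limit on every array and 4 on no array. Their summed linear signal was 47.0, 56.4 and 52.4 in the diabetic samples, against 47.6, 49.2 and 48.5 in the normal samples, highest on the same arrays as Snai1. By the median of the list, normal replicate 2 (2.139) stood above diabetic replicate 3 (2.130). Among the fibroblast genes Col1a2 differed by 0.15 (SE 0.14), and the fibroblast receptor gene Pdgfra by 0.16 (SE 0.11). Pdgfra had no overlap between the groups, a condition met by 5.02% of all genes with diabetic arrays higher. The matricellular gene Postn, under the limit on all arrays, differed by -0.20 (SE 0.11). The keratinocyte gene Krt5 was likewise highest on diabetic replicates 2 and 3, at 2.32 and 2.18, against 1.99 on the highest normal array. The summed signal of all 15 keratinocyte genes was instead highest on normal replicate 2 (75.9). The part of fibroblast or keratinocyte RNA in the Snai1 difference was not tested.

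Immune, vascular and neural crest markers were mostly at background. Of 9 macrophage genes 8 and of 8 neutrophil genes 6 were above the limit on no array, and 0 of 10 endothelial and pericyte genes exceeded it on all arrays. Their summed linear signals ranged from 26.7 to 27.1 in diabetic and 26.9 to 28.5 in normal samples for macrophages, 25.2 to 27.1 and 26.0 to 31.0 for neutrophils, and 36.6 to 36.7 and 34.5 to 37.9 for vessels. Of 7 melanocyte and nerve markers and 6 T and Langerhans cell markers measured, 0 exceeded it on all arrays and 3 of each list on none. Of the 8 neutrophil genes 1 was higher and 7 were lower in diabetic samples, with a median difference of -0.03. With 1 array left out, 2 or 3 of them were higher and 5 or 6 lower. For skeletal muscle, the difference was positive for 9 of 9 genes (median 0.12), where 48.7% of all genes were higher. For 3 of them the groups did not overlap, with diabetic arrays higher, where 5.02% of all genes met that condition. With diabetic replicate 1 left out the difference was positive for 6 of 9 (median 0.06), and the part of these genes in the other results was not tested. The summed signal of the 9 genes was highest on diabetic replicate 1 (59.6, against 50.1 to 52.3 on the other diabetic and 46.0 to 51.0 on the normal arrays), which was the diabetic array with the lowest Snai1. The contractile gene Myh2, 1 of the 3 without overlap, differed by 0.35 (SE 0.12, limma unadjusted p = 0.0147).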

How the data were processed

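The authors deposited 1 log2 signal per probe set for each of 6 arrays, and the submitters' processing notes name Partek. Background correction, normalization and annotation build go unstated in the sources used here. The base of the logarithm was taken from the values. Probe sets with 1 symbol (21789) were named from the platform annotation and updated by gene ID (21698 matched). Those with several symbols (1621) were left out of the gene test. The brightest probe set stood for each of 999 genes with several, leaving 19938 genes. The groups were compared by linear models with an intensity trend in the variance (limma 3.58.1, R 4.3.3; group as sole term) with Benjamini-Hochberg adjustment, tested on simulated data. Differences are diabetic minus normal, SE is moderated, and the threshold was an adjusted p under 0.05. Columns of other series numbered 0.

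The members and lists were chosen with earlier results of these data known. Named were all 7 members, up to 4 genes per list by smallest unadjusted p, fixed epithelial and mesenchymal genes, and 3 genes of most similar profile per member above the limit. The miR-200 genes were added after their values were seen. Alternatives covered scaling, variance model, array weights, dim-gene filters, probe set handling, a replicate block and each array left out. Genes on the lists without a single-symbol probe set were not analysed here.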

Additional observations from a re-analysis of the deposited data

How the results depend on the processing

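Over 17 alternatives the Snai1 difference kept its sign and stayed short of the adjusted threshold, between 0.50 and 0.57 under changed processing and between 0.39 and 0.71 with 1 array left out (adjusted p from 0.699 to 0.993, limma or the ordinary linear model). The number of members with an unadjusted p under 0.05 was 0 with the ordinary linear model, and between 0 and 1 with 1 array left out, the 0 being without diabetic replicate 2. Members past the adjusted threshold numbered 0 throughout, and genes past it between 0 and 2 with 1 array left out (2 without diabetic replicate 2, 1 without diabetic replicate 3).

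With 1 array left out the differences ran from -0.055 to 0.15 for Snai2, -0.17 to 0.11 for Snai3, -0.10 to 0.063 for Twist1, -0.054 to 0.14 for Twist2, -0.20 to 0.087 for Zeb1 and -0.09 to -0.01 for Zeb2. The sign turned for Snai2 without diabetic replicate 1 (-0.055), for Snai3 without diabetic replicate 2 (0.11) or normal replicate 2 (0.09), and for Twist2 without diabetic replicate 3 (-0.054). It turned for Twist1 without diabetic replicate 1 (0.0055) or normal replicate 1 (0.063), and for Zeb1 without the same arrays (0.011 and 0.087). Filters on dim genes removed Snai2 and Zeb2, and the stricter one also Snai3. With the limit at the 90th or 99th percentile, 4 or 0 members exceeded it on all arrays.

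The labels link arrays of the 2 groups by replicate number alone, and whether arrays with the same number shared a batch was not tested. Deviations of same-numbered arrays from the group means correlated at -0.02, 0.01 and 0.01 across genes, and not every array correlated best with its own number. With a replicate block Snai1 differed by 0.53 (unadjusted p = 0.0164, adjusted p = 0.802, limma) and 0 genes passed. Signals close to background limit what can be said of Snai2, Snai3, Twist2, Zeb1 and Zeb2. The same holds for Twist1, which cleared the limit by as little as 0.12.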

Other observations

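Other genes of the Snail/Scratch and Twist/Hand families, which the members' probe sets do not cover, were also read. Of 11 measured, 7 were higher and 4 lower in diabetic samples, with a median difference of 0.17, and 6 exceeded the background limit on all arrays. Tcf23, a helix-loop-helix gene, was at 2.60, 2.41 and 2.72 in the diabetic samples, against 1.82, 2.45 and 2.17 in the normal samples, a difference of 0.43 (SE 0.17, limma unadjusted p = 0.0229, adjusted p = 0.839). It was 0.27 without normal replicate 1. Tcf15, the paraxis gene of somites, was at 3.17, 3.23 and 3.32 in the diabetic samples, against 2.97, 3.03 and 3.13 in the normal samples. Its groups did not overlap, as for 5.02% of all genes with diabetic arrays higher, and the difference was 0.20 (SE 0.14). The heart and neural crest gene Hand2 differed by 0.23 (SE 0.16) and Tcf21 by -0.24 (SE 0.16). None passed the adjusted threshold.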
